A study of Mus musculus with 6 samples.

Results

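Of the 22942 genes in the tables, 9 are described here: the receptor genes Pparg, Ppara, Ppard, Rxra, Rxrb, Rxrg, Nr1h3 (LXR alpha) and Nr1h2 (LXR beta), and the corepressor gene Ncor1. They were chosen by name, and the transcript with the highest mean RPKM (reads scaled to transcript length and to library size) stood for each gene. All 9 were found and all 9 passed the filter on low values. The tables hold messenger RNA from C3H-10T1/2 cells, an established mouse mesenchymal line, at day 6 of brown fat differentiation. The 2 groups are 3 cultures given 611 (Cpd A) at 4 uM, which blocks LSD1, an enzyme that removes methyl groups from histones, and 3 cultures given the solvent DMSO. The labels disagree on when treatment began, at seeding in the protocol and some hours after seeding in the sample descriptions. Both groups were induced for 72 h in a mixture with isobutylmethylxanthine, dexamethasone, insulin, T3, indomethacin at 125 uM and rosiglitazone at 1 uM, and then stayed in insulin, T3 and rosiglitazone. Rosiglitazone is a synthetic PPARG ligand, so the receptor had a drug ligand in every dish, DMSO included. The cells are 1 line with no added transgene named in the labels, and the defining brown fat gene Ucp1 was listed at 0 in all 6 libraries.

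PPARs, RXRs and LXRs are nuclear receptors, transcription factors whose activity is set by small lipid ligands. A PPAR or an LXR binds DNA as a heterodimer with an RXR, typically at direct repeats of the hexamer AGGTCA, spaced by a single base for PPARs and by 4 bases for LXRs. PPARG is required for fat cell formation, PPARA and PPARD drive fatty acid oxidation, and the LXRs sense oxysterols and control cholesterol export and fatty acid synthesis. NCOR1 sits on receptors that lack an agonist and recruits the deacetylase HDAC3.

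Most of these genes had less mRNA in cells given 611, by amounts that differed widely between them. Nr1h3 was 1.81-fold lower, Pparg 1.39-fold lower, Rxra 1.31-fold lower and the sparse Rxrg 3.08-fold lower, while Rxrb, Ppard and Ncor1 were lower by 1.20-fold or less and Nr1h2 and Ppara did not pass the test. Of the 9 genes, 7 were lower and 0 higher (limma on log2(RPKM + 1), Benjamini-Hochberg adjusted p below 0.05 over 13829 genes). Over all genes tested, 17.7% were called lower, 41.6% higher and 59.4% in either direction, and the median log2 fold change was 0.10 against -0.24 for the 9. After median-of-ratios scaling, 8 of the 9 were lower, 3805 of all genes were lower (27.5%) and 4075 higher (29.5%), against 2451 lower and 5758 higher without it. With values taken as a share of the summed RPKM, 5 of the 9 were lower: Pparg, Rxra, Rxrb, Rxrg and Nr1h3. In 7 of the 9 the 3 libraries with 611 all lay below the 3 with DMSO, and 66.2% of all genes tested had groups that did not overlap. The series' design text calls each group biological triplicates, and p-values measure the spread between these cultures.

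Library totals recovered from the tables lay between 4.08e+07 and 4.12e+07 with 611 and between 3.89e+07 and 3.99e+07 with DMSO. The summed level of 9 fat cell markers was 14228 to 15773 RPKM with 611 and 27481 to 28630 RPKM with DMSO, and all 8 that could be tested were lower. The summed level of 10 progenitor markers was 352 to 373 RPKM with 611 and 156 to 162 RPKM with DMSO, with 8 of 9 tested members higher and Dpp4 at 0 in every library. All 10 markers of dividing cells were higher, at 271 to 306 RPKM summed with 611 and 128 to 133 RPKM with DMSO. The 10 brown fat markers summed to 84.2 to 103 RPKM with 611 and 224 to 268 RPKM with DMSO, with 5 of 7 tested lower and 1 higher. Macrophage markers, looked at because macrophages also use PPARG and LXRs, summed to at most 2.79 RPKM with 611 and 1.44 RPKM with DMSO over 9 genes, with Ptprc, Itgam and Tyrobp at 0. Skeletal muscle markers summed to 1.76 to 1.94 RPKM with 611 and 1.67 to 2.02 RPKM with DMSO over 8 genes, with Myod1 and Myog at 0. In such bulk samples fewer fat cells and less receptor mRNA per fat cell cannot be told apart, and the part of the marker shifts in the receptor changes was not tested.

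**Figure D1:**
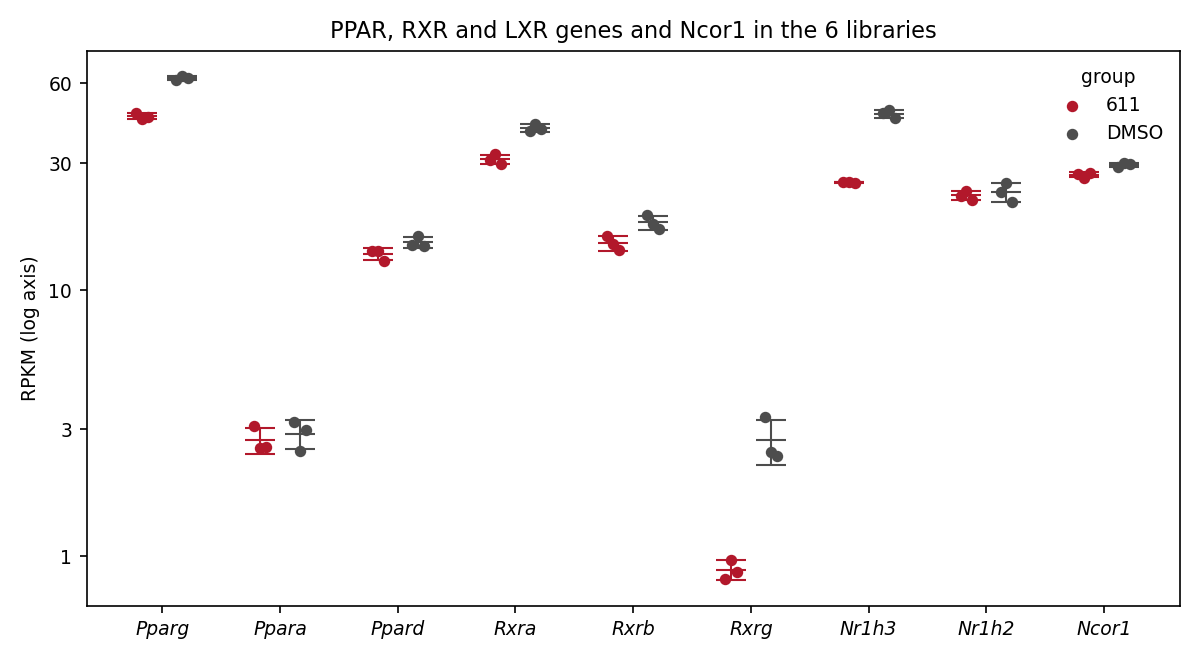
RPKM on a log axis for each of the 9 genes in the 3 libraries with 611 (red) and the 3 with DMSO (grey). Points are libraries, the horizontal mark is the mean and the bars are the SD. The groups are apart for Pparg, Ppard, Rxra, Rxrb, Rxrg, Nr1h3 and Ncor1 and overlap for Ppara and Nr1h2.

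Pparg, the receptor that fat cell formation depends on, had the highest level of the 29 nuclear receptor genes tested in all 6 libraries. It was at 46.5, 44.1 and 45.0 RPKM in the cultures with 611 and at 61.8, 64.0 and 62.7 RPKM in those with DMSO. The groups were far apart relative to their spread, at 45.2 ± 1.19 against 62.8 ± 1.09 RPKM (SD, n = 3 each; log2 fold change -0.47, SE 0.04, limma Benjamini-Hochberg adjusted p = 8.7e-06). The gene gives rise to gamma1 and gamma2 mRNAs from separate first exons, and gamma2, the form typical of fat cells, has an extended amino end. In the GENCODE annotation the coding part is 505 residues in NM_011146 (gamma2) and 475 residues in NM_001127330 (gamma1). NM_011146 had the higher RPKM and stands for the gene. The gamma1 transcript was at 44.4, 42.3 and 42.8 RPKM with 611 and at 58.7, 60.6 and 59.5 RPKM with DMSO.

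Both transcripts were assigned nearly the same reads, since they share most of their exons. NM_011146 held 3354, 3213 and 3253 recovered reads with 611 and 4247, 4496 and 4417 with DMSO. NM_001127330 held 3367, 3237 and 3251 reads with 611 and 4234, 4470 and 4402 with DMSO. The gamma2 reads minus the gamma1 reads, a difference that depends only on the exons that are not shared, came to -13, -24 and 2 with 611 and to 13, 26 and 15 with DMSO. Every library with 611 had a lower value than any library with DMSO. The value is not scaled to the length of the exons that are not shared, so its sign does not show which form was in excess. The difference was under 1% of the gene's reads and gave p = 0.10 (exact two-sided permutation test). That is the smallest p that 3 against 3 allow, so this test cannot resolve a switch between the isoforms. Reads in shared exons count for both transcripts, so the percentage does not measure the size of a shift.

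The promoter of gamma2 is printed to show the start that the fat cell form uses, and that of gamma1 for comparison. Both come from RefSeq on the build GRCm38.p6 (the submitters' processing notes name mm9 for the reads), with 250 bases before and 50 after the start of transcription. The gamma2 window is chr6:115421816-115422115 on the plus strand and the gamma1 window is chr6:115360894-115361193 on the plus strand. Capitals mark every match, on either strand, to the motifs searched: the receptor hexamer AGGTCA, the spaced repeats AGGNCANAGGNCA and AGGNCANNNNAGGNCA, the C/EBP consensus TTGCNNAA, the GC box GGGCGG and the TATA box TATAAA. The hexamer can lie inside either spaced repeat, where N is any base.
Pparg gamma2: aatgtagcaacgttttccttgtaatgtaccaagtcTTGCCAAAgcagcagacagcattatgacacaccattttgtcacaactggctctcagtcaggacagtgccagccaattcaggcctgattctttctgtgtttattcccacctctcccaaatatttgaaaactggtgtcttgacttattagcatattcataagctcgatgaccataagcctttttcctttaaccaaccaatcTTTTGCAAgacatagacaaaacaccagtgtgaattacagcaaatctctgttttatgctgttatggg
Pparg gamma1: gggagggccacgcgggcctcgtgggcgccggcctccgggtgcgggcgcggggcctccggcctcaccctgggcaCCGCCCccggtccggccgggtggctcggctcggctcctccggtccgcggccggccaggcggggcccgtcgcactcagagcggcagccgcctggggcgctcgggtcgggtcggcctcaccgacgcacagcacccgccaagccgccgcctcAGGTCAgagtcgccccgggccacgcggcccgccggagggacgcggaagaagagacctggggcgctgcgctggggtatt
The gamma2 window held 2 matches to the C/EBP consensus and none to the other motifs, with 40.3% G and C. The start used for the gamma1 window lies 193 bases downstream of the annotated start of NM_001127330. The gamma1 window held 1 hexamer and 1 GC box, with 80.3% G and C. Another Pparg window nearest to the gamma1 start, chr6:115362099-115362398, is not printed. It held 1 hexamer, 2 GC boxes and 1 TATA box, with 62.7% G and C. Among all 32851 promoter windows of the same length, 10.8% held the C/EBP consensus, 16.3% the hexamer, 35.7% the GC box and 13.6% the TATA box. C/EBP factors are known activators of Pparg, and the matches are descriptions of sequence only.

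Ppard, the broadly expressed PPAR, was at 14.04, 14.10 and 12.86 RPKM with 611 and at 14.8, 16.0 and 14.7 RPKM with DMSO. The difference was small, at 13.7 ± 0.700 against 15.2 ± 0.689 RPKM (SD, n = 3 each; log2 fold change -0.14, SE 0.05, limma Benjamini-Hochberg adjusted p = 0.0449). Without any single library the adjusted p rose to between 0.0511 and 0.144, and as a share of the summed RPKM it was 0.184, so the call for Ppard rests on the smallest margin of the 7. Ppara, the PPAR of liver and brown fat, was low in both groups, at 3.09, 2.54 and 2.57 RPKM with 611 and at 3.20, 2.49 and 2.99 RPKM with DMSO. The groups overlapped and the gene did not pass the test (log2 fold change -0.06, 95% interval -0.26 to 0.14, limma Benjamini-Hochberg adjusted p = 0.595). Its values rest on 909, 755 and 757 reads with 611 and 895, 712 and 860 reads with DMSO.

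RXRs are the shared partners of PPARs and LXRs. Rxra, the main form, was at 30.9, 32.5 and 29.9 RPKM with 611 and at 39.7, 42.3 and 40.3 RPKM with DMSO. It fell to 31.1 ± 1.30 RPKM in cultures with 611, against 40.8 ± 1.38 with DMSO (SD, n = 3 each; log2 fold change -0.38, SE 0.04, limma Benjamini-Hochberg adjusted p = 9.2e-05). Rxrb, the ubiquitous form, was at 16.0, 14.9 and 14.2 RPKM with 611 and at 19.2, 17.7 and 17.1 RPKM with DMSO, 1.20-fold lower with 611. Its groups did not overlap (log2 fold change -0.24, SE 0.06, limma Benjamini-Hochberg adjusted p = 0.00617). The 4 Rxrb transcripts in the tables gave values close to each other, the lowest at 13.4 to 14.8 RPKM with 611 and 15.7 to 17.4 RPKM with DMSO.

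Rxrg, a form with a restricted range of tissues, had the lowest level and the largest fold of the 9. It was at 0.819, 0.971 and 0.875 RPKM with 611 and at 3.35, 2.48 and 2.38 RPKM with DMSO. These levels rest on 56, 67 and 60 reads with 611 and on 218, 165 and 159 reads with DMSO, so the groups were apart despite the low level. The mean was 0.888 ± 0.0768 RPKM with 611 and 2.74 ± 0.533 RPKM with DMSO (SD, n = 3 each; log2 fold change -0.98, SE 0.10, limma Benjamini-Hochberg adjusted p = 4.2e-05). Adding 1 before the log understates a change at such levels, and with 0.1 in its place the log2 fold change was -1.51. The transcript used, NM_001159731, encodes 340 residues, and a longer one, NM_009107, encodes 463 residues. The longer transcript had 44, 60 and 46 reads with 611 and 171, 121 and 132 reads with DMSO, which is 81.6 ± 6.96% of the reads of the shorter with 611 and 78.3 ± 4.85% with DMSO. That share did not differ between the groups beyond its spread (exact two-sided permutation p = 0.60). Reads in shared exons count for both Rxrg transcripts, so the share cannot show whether the mix of isoforms changed.

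The promoter nearest to the start of the shorter Rxrg transcript is shown because Rxrg had the largest fold, at chr1:167618015-167618314 on the plus strand of GRCm38.p6, marked in the same way.
Rxrg: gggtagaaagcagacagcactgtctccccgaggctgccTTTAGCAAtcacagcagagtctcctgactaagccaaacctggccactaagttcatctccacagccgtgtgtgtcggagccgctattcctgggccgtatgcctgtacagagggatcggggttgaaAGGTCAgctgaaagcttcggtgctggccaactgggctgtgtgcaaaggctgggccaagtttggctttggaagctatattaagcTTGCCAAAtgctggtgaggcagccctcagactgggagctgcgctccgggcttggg
It held 1 hexamer and 2 matches to the C/EBP consensus, with 57.0% G and C. Of the 16 promoter windows that RefSeq gives for the 9 genes, 4 held the hexamer, 3 the C/EBP consensus and 8 the GC box. None of the 16 held either spaced repeat, which 0.381% and 0.253% of all windows held.

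The LXR pair moved unequally. Nr1h3, the form enriched in fat, liver and macrophages, was at 25.5, 25.6 and 25.3 RPKM with 611 and at 46.6, 47.5 and 44.3 RPKM with DMSO. Its mean was 25.5 ± 0.152 RPKM with 611 and 46.1 ± 1.62 RPKM with DMSO (SD, n = 3 each; log2 fold change -0.83, SE 0.04, limma Benjamini-Hochberg adjusted p = 7.8e-07). The other Nr1h3 transcript, NM_013839, gave 23.4 to 23.7 RPKM with 611 and 40.9 to 43.9 RPKM with DMSO. Nr1h2, the ubiquitous form, was at 22.7, 23.6 and 21.9 RPKM with 611 and at 23.5, 25.3 and 21.4 RPKM with DMSO. The Nr1h2 groups overlapped and the gene did not pass the test (log2 fold change -0.04, 95% interval -0.17 to 0.10, limma Benjamini-Hochberg adjusted p = 0.625). After median-of-ratios scaling Nr1h2 was called lower, with a log2 fold change of -0.17 (adjusted p = 0.0379), and as a share of the summed RPKM it had a log2 fold change of 0.02 (limma Benjamini-Hochberg adjusted p = 0.760). Nr1h3 was called lower under both, at -0.96 and -0.77.

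Nr1h3 made up 52.9%, 52.0% and 53.6% of the LXR mRNA with 611 and 66.5%, 65.2% and 67.4% with DMSO. The pair was thus close to even in the cultures with 611, and Nr1h3 exceeded Nr1h2 clearly in those with DMSO. The log2 ratio of Nr1h3 to Nr1h2 was 0.16 ± 0.05 with 611 and 0.98 ± 0.07 with DMSO (exact two-sided permutation p = 0.10, the smallest possible). A ratio within a library does not depend on how libraries are scaled.

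The promoters of the LXR pair are printed side by side, since 1 of these genes fell and the other did not pass the test. The Nr1h3 window is chr2:91195067-91195366 and the Nr1h2 window is chr7:44553916-44554215, both on the minus strand of GRCm38.p6 and written in the direction of transcription.
Nr1h3: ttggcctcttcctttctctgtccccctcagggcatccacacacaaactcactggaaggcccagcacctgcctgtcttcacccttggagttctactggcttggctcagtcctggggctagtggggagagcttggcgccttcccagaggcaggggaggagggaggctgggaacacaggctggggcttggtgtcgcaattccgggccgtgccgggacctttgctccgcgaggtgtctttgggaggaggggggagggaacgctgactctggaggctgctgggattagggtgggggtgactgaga
Nr1h2: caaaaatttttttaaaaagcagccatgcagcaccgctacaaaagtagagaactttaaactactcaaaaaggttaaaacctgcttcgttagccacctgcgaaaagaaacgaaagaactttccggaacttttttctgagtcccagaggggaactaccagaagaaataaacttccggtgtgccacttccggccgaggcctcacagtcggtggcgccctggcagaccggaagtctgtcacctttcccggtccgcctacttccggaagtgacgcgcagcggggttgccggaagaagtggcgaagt
Neither window held a match to any of the 6 motifs, so no letters are in capitals. G and C made up 63.0% of the Nr1h3 window and 50.7% of the Nr1h2 window.

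Ncor1, the corepressor, was at 27.4, 26.6 and 27.7 RPKM with 611 and at 29.0, 30.1 and 29.9 RPKM with DMSO. The fall was 1.09-fold, to 27.2 ± 0.595 RPKM with 611 against 29.7 ± 0.558 with DMSO (SD, n = 3 each; log2 fold change -0.12, SE 0.04, limma Benjamini-Hochberg adjusted p = 0.0192). The call was lost as a share of the summed RPKM (adjusted p = 0.184) and when 611 replicate 2, DMSO replicate 2 or DMSO replicate 3 was left out (limma Benjamini-Hochberg adjusted p between 0.0568 and 0.0689).

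The make-up of each family was compared by summing the RPKM of its genes in each library, which is a level per transcript length. PPAR mRNA summed to 63.6, 60.7 and 60.4 RPKM with 611 and to 79.8, 82.4 and 80.4 RPKM with DMSO. RXR mRNA summed to 47.7, 48.3 and 45.0 RPKM with 611 and to 62.2, 62.5 and 59.8 RPKM with DMSO. LXR mRNA summed to 48.2, 49.3 and 47.3 RPKM with 611 and to 70.0, 72.8 and 65.8 RPKM with DMSO. Each of the 3 sums was lower in every culture with 611 than in any with DMSO. The log2 ratio of the PPAR sum to the RXR sum was 0.39 ± 0.05 with 611 and 0.39 ± 0.03 with DMSO, a difference of -0.01 (exact two-sided permutation p = 0.80). The log2 ratio of the LXR sum to the RXR sum was 0.04 ± 0.03 with 611 and 0.18 ± 0.04 with DMSO, and that of the PPAR sum to Ncor1 was 1.18 ± 0.05 with 611 and 1.45 ± 0.02 with DMSO (exact two-sided permutation p = 0.10 each).

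Within the PPARs, Pparg held 73.4 ± 0.968% of the sum with 611 and 77.7 ± 0.262% with DMSO, and Ppard 22.2 ± 0.968% with 611 and 18.7 ± 0.547% with DMSO. Within the RXRs, Rxrg held 1.89 ± 0.154% with 611 and 4.44 ± 0.813% with DMSO, while Rxra held 66.1 ± 1.29% with 611 and 66.3 ± 2.20% with DMSO. The groups did not overlap for the shares of Pparg, Ppard, Ppara, Rxrg and both LXRs and overlapped for those of Rxra and Rxrb. A total of 15 such sums, shares and ratios were tested, and with an exact permutation p = 0.10 as the smallest possible none could pass 0.05. The smallest Benjamini-Hochberg adjusted permutation p over the 15 was 0.125.

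**Figure D2:**
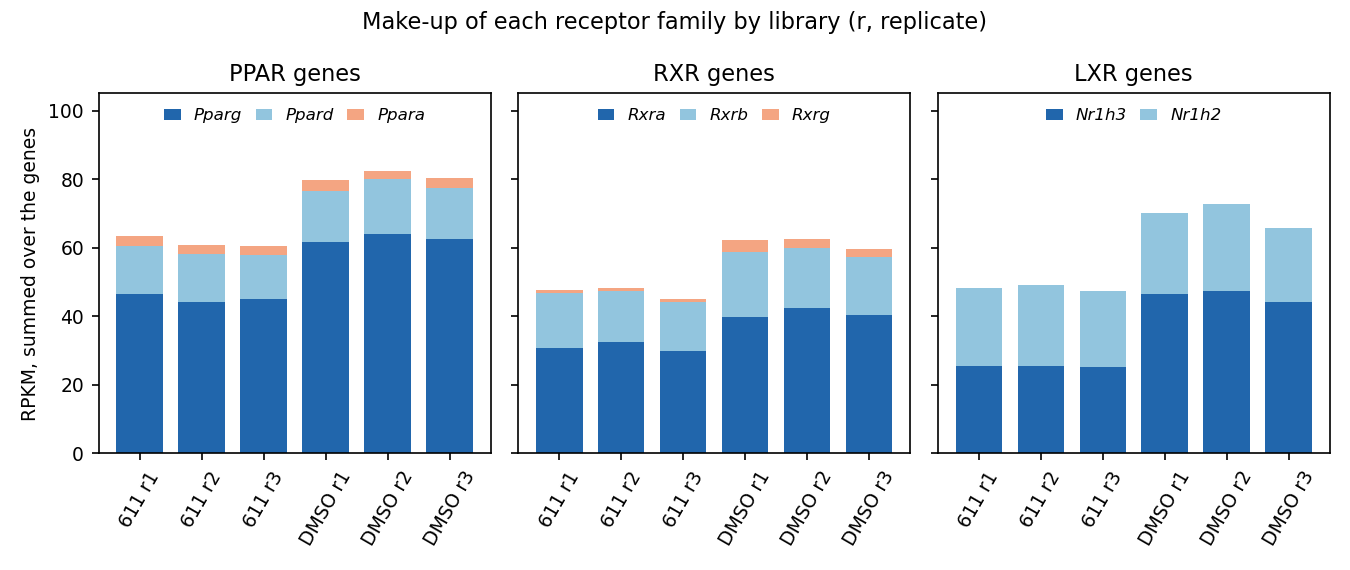
Stacked bars of RPKM for the PPAR, RXR and LXR genes in each library, with the 3 replicates of 611 left of the 3 of DMSO. All 3 stacks are lower with 611, and within the LXR stack the lower block, Nr1h3, is 25.3 to 25.6 RPKM with 611 and 44.3 to 47.5 with DMSO, and the upper block, Nr1h2, is 21.9 to 23.6 RPKM with 611 and 21.4 to 25.3 with DMSO.

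By level, the order in the cultures with 611 was Pparg, Rxra, Ncor1, Nr1h3, Nr1h2, Rxrb, Ppard, Ppara and Rxrg. In those with DMSO it was Pparg, Nr1h3, Rxra, Ncor1, Nr1h2, Rxrb, Ppard, Ppara and Rxrg. For the transcripts used, neighbours in these orders did not overlap, except Ppara and Rxrg in DMSO. The lowest Rxrb transcript, at 13.4 to 14.8 RPKM with 611, did overlap Ppard. The other Nr1h3 transcript overlapped Nr1h2 with 611 (23.4 to 23.7 against 21.9 to 23.6 RPKM). With DMSO that Nr1h3 transcript overlapped Rxra (40.9 to 43.9 against 39.7 to 42.3 RPKM). The gaps within these pairs of genes thus depend on the transcript used. Among the 29 nuclear receptors tested, Nr1h3 ranked 2 in each DMSO library and 5 or 6 in the libraries with 611.

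Among the other nuclear receptors some rose and some fell. Of the 41 besides these 8, 21 could be tested. The counts were 11 higher and 4 lower with 611 (8 and 5 once scaled by median of ratios), and the median was 0.16 in log2 units. Over all genes 41.6% were higher and 17.7% lower, so these counts lie near the background. On the log2(RPKM + 1) scale the largest rises were those of Vdr, the vitamin D receptor, Nr2f1, Rarg and Nr2f2, while by the ratio of means the sparse Nr4a2, 1.85-fold higher, exceeded Nr2f2, 1.75-fold higher. Vdr was at 6.59, 7.87 and 7.11 RPKM with 611 and at 3.33, 2.97 and 3.12 RPKM with DMSO, 2.29-fold higher. Rarg, a retinoic acid receptor, was at 14.3, 17.3 and 16.0 RPKM with 611 and at 8.73, 8.36 and 7.69 RPKM with DMSO, 1.92-fold higher. Both stayed called higher under each scaling.

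Thrb, Esrra and Rora were among the 4 that fell. Thrb, a thyroid hormone receptor, was 2.82-fold lower at 0.799 ± 0.0885 RPKM with 611 against 2.25 ± 0.308 with DMSO, and Esrra, a regulator of mitochondrial genes, 1.36-fold lower at 27.0 ± 1.67 RPKM with 611 against 36.8 ± 0.444 with DMSO (SD, n = 3 each; limma Benjamini-Hochberg adjusted p = 3.3e-05 and 6.8e-05). Receptors among the 5 whose log2(RPKM + 1) followed Pparg most closely over the 6 libraries were Nr1h3 (Pearson r = 0.993), Esrra (0.980), Rxra (0.970) and Thrb (0.966). These 6 points form 2 groups of 3, so r mostly repeats the difference between the groups.

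Receptors that also pair with an RXR were set beside the PPARs and LXRs for their role, after their values were seen. They were Thra, Thrb, Rara, Rarg, Vdr, Nr1i3, Nr4a1 and Nr4a2. Of these 8, 6 were higher, Thrb was lower and Nr1i3 did not pass. Once scaled by median of ratios 5 were higher, without Nr4a1 (limma Benjamini-Hochberg adjusted p = 0.0884). Of all genes tested 41.6% were higher and 17.7% lower, and 29.5% and 27.5% once scaled. Rara was at 12.7, 13.2 and 12.4 RPKM with 611 and at 8.06, 7.87 and 7.66 RPKM with DMSO, and Thra at 36.0, 39.6 and 37.3 RPKM with 611 and at 27.2, 29.0 and 29.3 RPKM with DMSO. The cultures with 611 had less Rxra mRNA beside more Rara, Rarg, Thra and Vdr mRNA (limma Benjamini-Hochberg adjusted p = 6.4e-06, 1.6e-05, 1.3e-04 and 6.3e-06 for the last 4, each also called after median-of-ratios scaling).

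**Figure D3:**
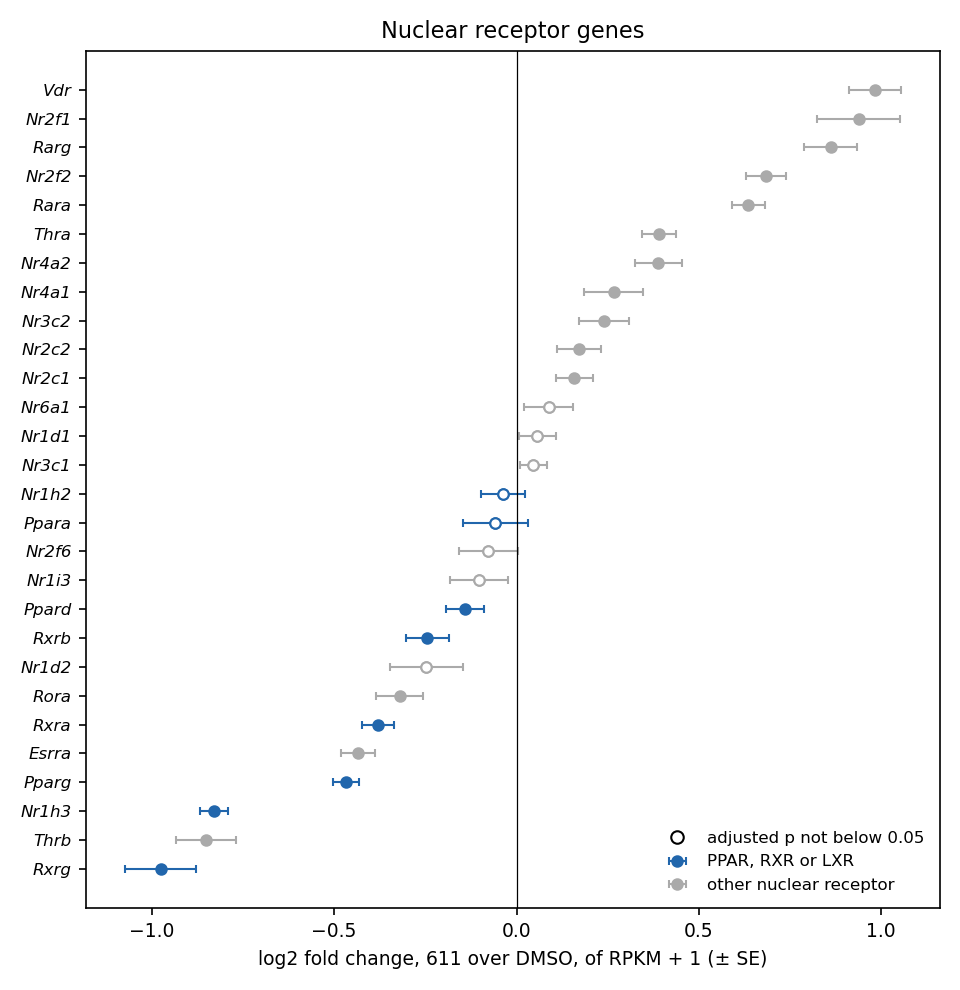
Log2 fold change of RPKM + 1 for 28 of the 29 nuclear receptor genes tested, 611 over DMSO, with the standard error as bars, for the PPAR, RXR and LXR genes (blue) and the others (grey). Open symbols did not pass the test. The blue symbols lie from -0.04 for Nr1h2 to -0.98 for Rxrg, and the grey ones from -0.85 for Thrb to 0.98 for Vdr.

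Coactivators, some of which acetylate or remodel chromatin at receptors bound by an agonist, rose more often than they fell, as did all genes tested. Of 20 tested, 12 rose and 2 fell (7 and 3 once scaled by median of ratios), at a median of 0.22 on the log2 scale against 0.10 for all genes. Over all genes 41.6% rose and 17.7% fell (29.5% and 27.5% once scaled). Cited2, a CBP/p300 binding protein, was 1.55-fold higher at 27.0 ± 0.565 RPKM with 611 against 17.4 ± 1.41 with DMSO, and the p160 coactivator gene Ncoa3 1.59-fold higher at 3.72 ± 0.0963 against 2.35 ± 0.217 (SD, n = 3 each). The 2 lower were Ppargc1b and Ncoa1. Ppargc1b, a coactivator of mitochondrial genes, was at 12.6, 10.7 and 11.4 RPKM with 611 and at 17.6, 16.1 and 16.5 RPKM with DMSO (log2 fold change -0.50, limma Benjamini-Hochberg adjusted p = 1.5e-04).

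Corepressors and the partners of NCOR1 gave 8 higher and 1 lower of 14 tested, with a median of 0.12 against 0.10 for all genes, but only 2 rose and 1 fell once scaled by median of ratios. The share higher over all genes was 41.6%, and 29.5% once scaled, so no shift of the list beyond the background is read from these counts. Hdac3, the deacetylase of the NCOR1 complex, was 1.18-fold higher at 32.5 ± 0.515 RPKM with 611 against 27.5 ± 1.07 with DMSO, a call lost after scaling (limma Benjamini-Hochberg adjusted p = 9.4e-04 and 0.0527). Nrip1, a corepressor that represses brown fat genes in adipocytes, was the 1 lower member, at 13.0, 13.5 and 13.1 RPKM with 611 and at 17.2, 19.5 and 19.0 RPKM with DMSO.

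Known target genes of the receptors were counted from lists chosen with results of these data in view. Of 27 tested PPARG targets of fat cells 25 were lower and 0 higher, and their median was -0.78 on the log2 scale, against 0.10 for all genes. Among all genes tested 17.7% were lower and 41.6% higher. The list holds 8 of the 9 fat cell markers above, so its counts and those of the markers are not separate observations. Retn, the hormone resistin, was at 82.0, 82.0 and 76.6 RPKM with 611 and at 234, 233 and 225 RPKM with DMSO, 2.88-fold lower. The 2 that did not pass, named after their values were seen, were Angptl4, a secreted inhibitor of lipoprotein lipase, at 112, 145 and 120 RPKM with 611 and 125, 162 and 138 RPKM with DMSO (limma Benjamini-Hochberg adjusted p = 0.198, but 9.5e-04 with the replicate block and 0.0314 after median-of-ratios scaling) and Ubb, a ubiquitin gene, at 1045, 1046 and 972 RPKM with 611 and 853, 1079 and 1356 RPKM with DMSO (limma Benjamini-Hochberg adjusted p = 0.662). Angptl4 was lower with 611 in each same-numbered pair, and 26 of the 27 were lower under the block and likewise under the scaling. Of all genes, 19.5% were lower under the block and 27.5% under the scaling.

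Of 27 tested PPARA and PPARD targets 21 were lower and 2 higher, with a median of -0.58. Among all genes tested 17.7% were lower and 41.6% higher. Ucp3, a mitochondrial carrier, was at 2.62, 2.48 and 2.13 RPKM with 611 and at 6.45, 6.73 and 6.64 RPKM with DMSO, 2.74-fold lower. Acaa1a, a peroxisomal thiolase, was 2.25-fold lower at 64.3 ± 6.35 RPKM with 611 against 145 ± 6.37 with DMSO (SD, n = 3 each). Named after their values were seen, Pdk4 and Cpt1b lie outside the naming rule. Pdk4, a kinase that blocks pyruvate oxidation and a common readout of PPARD, was at 71.9, 80.7 and 79.1 RPKM with 611 and at 77.4, 85.6 and 84.8 RPKM with DMSO and did not pass (limma Benjamini-Hochberg adjusted p = 0.169). It was called lower with the replicate block (limma Benjamini-Hochberg adjusted p = 0.0125) and after median-of-ratios scaling (0.0043), and 23 of the 27 were lower under either. Of all genes, 19.5% were lower with the block and 27.5% after the scaling. The isoforms of carnitine palmitoyltransferase 1 differed, with Cpt1a higher at 29.5 ± 1.06 RPKM with 611 against 18.8 ± 0.858 with DMSO and Cpt1b, the muscle and brown fat form, lower at 6.89 ± 0.643 against 14.4 ± 1.16.

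LXR targets were mixed. Of 17 tested, a count that includes Nr1h3 itself, 9 were lower and 4 higher, with a median of -0.26, and with the replicate number as a block 12 were lower and 5 higher. Over all genes 17.7% were lower and 41.6% higher without the block, and 19.5% and 44.6% with it. Under the block 7 of the 9 receptor and corepressor genes were lower. Abca1, the exporter of cholesterol, and Srebf1, the regulator of fatty acid synthesis, are the best known of the list and were named after their values were seen. Abca1 was at 26.2, 27.1 and 25.4 RPKM with 611 and at 35.3, 35.5 and 34.4 RPKM with DMSO, and Srebf1 at 47.1, 47.9 and 40.7 RPKM with 611 and at 59.7, 61.1 and 56.6 RPKM with DMSO (limma Benjamini-Hochberg adjusted p = 2.9e-05 and 7.7e-04). Abcg1, the partner exporter, was at 6.24, 3.89 and 6.06 RPKM with 611 and at 7.07, 5.39 and 7.28 RPKM with DMSO. It was lower in each same-numbered pair and did not pass the test without the pairing (limma Benjamini-Hochberg adjusted p = 0.187, and 0.00704 with the replicate block).

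The 4 higher LXR targets were Pltp, Arl4c, Mylip and Rnf145. Pltp, which moves phospholipid between lipoproteins, was at 36.6, 38.0 and 36.0 RPKM with 611 and at 18.9, 19.4 and 19.1 RPKM with DMSO, 1.93-fold higher. Mylip, the ligase that degrades the LDL receptor, was 1.39-fold higher at 17.8 ± 1.02 RPKM with 611 against 12.8 ± 0.573 with DMSO (SD, n = 3 each). These 4 remained called higher under median-of-ratios scaling and as a share of the summed RPKM.

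**Figure D4:**
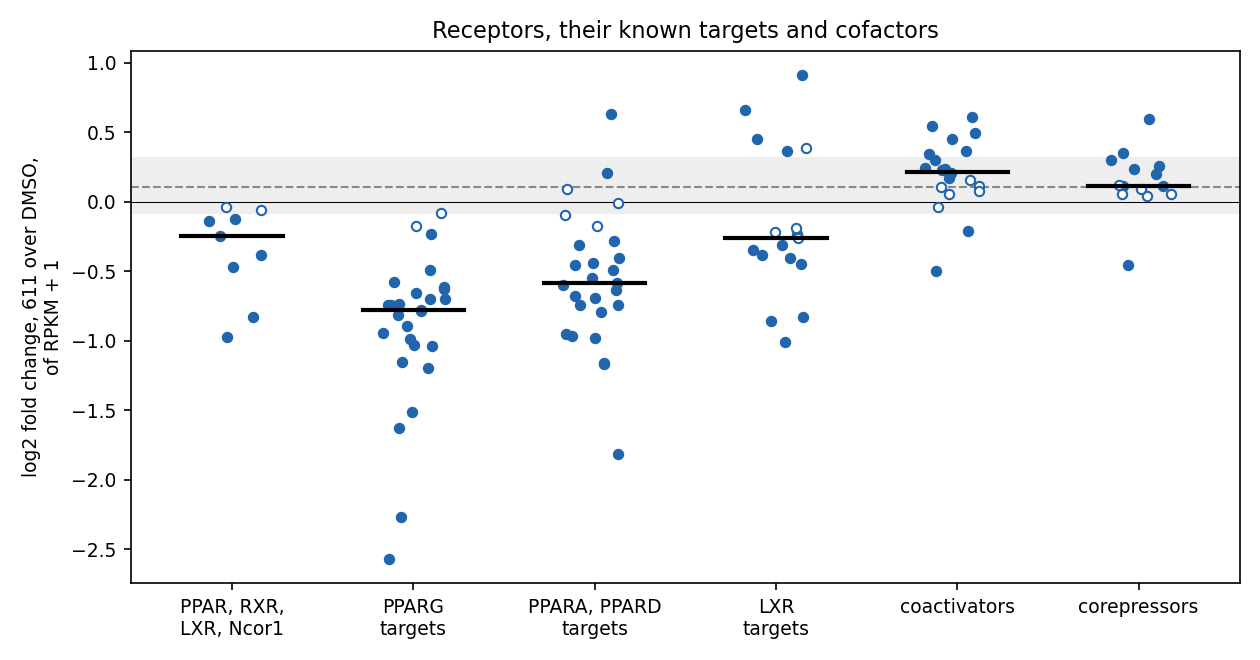
Log2 fold change of RPKM + 1, 611 over DMSO, for the 9 genes, the target lists and the cofactor lists. Each point is a gene, filled where the adjusted p was below 0.05, the black bar is the list's median, the dashed line is the median of all genes at 0.10 and the grey band spans their quartiles from -0.08 to 0.32. The PPARG targets lie lowest, the LXR targets lie on both sides of 0 and the coactivators lie on both sides, with 12 of 20 called higher.

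Genes that make or carry candidate ligands were sparse: 9 of 20 could be tested, of which 7 were higher and 2 lower (6 and 2 once scaled by median of ratios). Over all genes 41.6% were higher and 17.7% lower (29.5% and 27.5% once scaled), so these counts are a description only. Ptgs1, cyclooxygenase 1, was at 20.1, 23.0 and 20.2 RPKM with 611 and at 7.05, 8.21 and 6.55 RPKM with DMSO, 2.90-fold higher. Fabp5, a fatty acid binding protein known to deliver ligands to PPARD, was 1.88-fold lower at 776 ± 52.3 RPKM with 611 against 1460 ± 46.6 with DMSO. Cyp27a1, which makes an oxysterol ligand of the LXRs, was listed at 0 in all 6 libraries and is named outside the rule.

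Factors known to regulate Pparg or its protein gave 13 higher and 4 lower of 22 tested, against 8 and 4 once scaled by median of ratios. The shares over all genes were 41.6% higher and 17.7% lower, and 29.5% and 27.5% once scaled, so the counts are given as a description. Cebpb, an early activator of Pparg, was at 60.9, 56.6 and 54.7 RPKM with 611 and at 85.2, 83.3 and 71.0 RPKM with DMSO, 1.39-fold lower (limma Benjamini-Hochberg adjusted p = 5.0e-04). Gata2, a factor of preadipocytes that represses Pparg, was at 2.49, 2.80 and 2.50 RPKM with 611 and at 0.651, 1.02 and 0.952 RPKM with DMSO, 2.97-fold higher (limma Benjamini-Hochberg adjusted p = 2.5e-05). Ebf1, an activator of Pparg, was higher too, at 36.5 ± 1.44 RPKM with 611 against 24.8 ± 0.992 with DMSO.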

How the data were processed

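Alignment tools named in the submitters' processing notes are TopHat2 (2.0.12), TopHat and SAMtools, and the build there is mm9, per the submitters' processing notes. The authors deposited RPKM values for 28430 RefSeq transcripts per library. The libraries came from a stranded kit, but no source used here gives the program behind the RPKM or whether it counted by strand, so overlapping and antisense genes cannot be told apart. Symbols came from a RefSeq table (GRCm38.p6) and 27789 accessions matched.

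Groups came from the sample titles. Genes with at least 0.1 RPKM in at least 3 libraries, 13829, were tested on log2(RPKM + 1) with limma 3.58.1 (trend, group as the term) in R 4.3.3, Benjamini-Hochberg adjusted over all of them, and an adjusted p below 0.05 was a call. The fit was tested on simulated data. Single values were tested by exact permutation. Library totals and reads were recovered from whole multiples of the value of 1 read (within 0.0025 reads plus 2.5e-06 per read), with the transcript length found by search. Whether they are reads or pairs is unknown. The 95% intervals given for log2 fold changes come from the limma fit and rest on the spread between libraries.

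Same-numbered libraries deviated together (correlations of deviations from group means 0.30, 0.30 and 0.18), which pairs them by the data, not by the labels. The permutation tests exchanged all 6 libraries freely and took no account of this pairing. Alternatives were other pseudocounts, filters, scalings, isoform means, no trend, a replicate block and leaving out each library. The genes, lists and motifs were chosen with earlier results of these data known. Named genes are the 9 and, per list, up to 4 called genes in each direction with the largest change, groups apart and at least 1 RPKM. Some genes that the rule names are not reported here.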

Additional observations from a re-analysis of the deposited data

How the results depend on the processing

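Pparg, Rxra, Rxrb, Rxrg and Nr1h3 stayed lower and past the threshold under all 10 other settings and without any of the 6 libraries in turn. Their log2 fold changes ran from -0.60 to -0.41 (Pparg), -0.51 to -0.32 (Rxra), -0.37 to -0.19 (Rxrb), -1.51 to -0.88 (Rxrg) and -0.96 to -0.77 (Nr1h3) over those 10. The replicate block, the paired fit, ended no call among the 9 genes and moved all genes to 6169 higher and 2700 lower. Median-of-ratios scaling gave 3805 lower genes, and 4148 with the replicate block as well. This is because the scaling lowers every library with 611 and raises every library with DMSO. Ppard lost its call with no filter on low values (log2 fold change -0.1403), without the limma trend (-0.1403), as a share of the summed RPKM (-0.0829) and when any library was left out (-0.1619 to -0.1000). Ncor1 lost it as a share of the summed RPKM (-0.0615) and without 3 of the 6 libraries (over all 6, -0.1359 to -0.1038). Nr1h2 turned to 0.0220 as a share of the summed RPKM, gained a call after median-of-ratios scaling (-0.1689, and the same -0.1689 with the replicate block), and ran from -0.0959 to 0.0192 when a library was left out, the highest without DMSO replicate 2. For Ppard and Ncor1 the cause was not tested. The number of the 9 called lower was 5 or 6 with a library left out and 0 were called higher. No composition value moved by more than its spread. At about 60 reads per library with 611, Rxrg has the least precise value of the 9.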
